A study of Mus musculus with 8 samples.

Results

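The metabotropic glutamate receptors were compared between hippocampi of BTBR mice and those of B6 mice. The members were the genes Grm2, Grm3, Grm4, Grm5, Grm7 and Grm8, and every non-control array probe that carried 1 of these 6 gene names was taken, which gave 13 probes. The arrays named 27373 genes in all. The remaining receptors of the family were not analysed here. Whole hippocampi came from untreated male mice of 5 months, with 4 BTBR T+ Itpr3tf/J mice and 4 wild type C57BL/6J (B6) mice, and each mouse had its own single-color array of 60-base probes. BTBR is an inbred strain studied as a mouse model of autism, and the comparison asks how hippocampal gene expression in this strain differs from that of B6, the control strain. The strains differ at many loci, so no difference below can be assigned to a single allele.

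Metabotropic glutamate receptors are G protein-coupled receptors that respond to the transmitter used by most excitatory synapses and adjust how much of it is released and how strongly the target cell answers. Group I receptors, here Grm5, couple to Gq and phospholipase C, sit mainly at the edge of the postsynaptic density and are held there by Homer proteins. Group II receptors (Grm2 and Grm3) and group III receptors (Grm4, Grm7 and Grm8) couple to Gi/o, lower cyclic AMP and act largely as brakes on transmitter release. In the hippocampus Grm2 is known from dentate granule cells and their mossy fibers, Grm3 from neurons and astrocytes, Grm7 from the active zone of many terminals and Grm8 from the lateral perforant path.

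The probes read different places of these transcripts. All positions are those of mm9 in the array files, and whether a place is exonic, intronic or in a UTR was not determined, since no mm9 annotation was used here. The sequences shown belong to both Grm2 probes that were detected, of which 1 passed the test below, and to the Grm3, Grm4 and Grm8 probes, which had the largest differences among the other genes. They are written 5′ to 3′ in lower case as the array files give them, with 60 bases for NM_001160353 and Grm4 and the first 30 bases for the others, and no base is marked.
Grm2 AK034263: ggcatcaatgggctggtgaagtctctggaa
Grm2 NM_001160353: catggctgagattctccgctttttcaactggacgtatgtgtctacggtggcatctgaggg
Grm3 NM_181850: acagtggcaatattaggtaacctttttcct
Grm4 NM_001013385: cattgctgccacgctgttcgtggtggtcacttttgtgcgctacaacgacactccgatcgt
Grm8 NM_008174: caacatacatcagctacagtaatcattcaa

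The detected Grm2 probes both lie on the minus strand of chromosome 9. The AK034263 probe, named for a cDNA clone of diencephalon, is at chr9:106545437-106545496, and the NM_001160353 probe is at chr9:106553374-106553433. They are 7877 bases apart, with AK034263 on the downstream side for a gene read from the minus strand. A further probe under the name Grm2, AK015353 at chr9:106545189-106545248, lies 188 bases from the AK034263 probe but on the plus strand, opposite to the other two. The Grm3 probe is at chr5:9485369-9485428 (minus strand), the Grm4 probe at chr17:27572067-27572126 (minus strand) and the Grm8 probe at chr6:27225620-27225679 (minus strand). Grm5 had 4 probes and Grm7 had 3, all on the plus strand.

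Before the results, marker levels have to be described, because BTBR 1 and BTBR 2 stood apart on several lists and B6 2 on striatum markers. Between 56.8% and 71.9% of probes were well above background on a B6 array and between 61.9% and 71.5% on a BTBR array. Hippocampal markers were present on the arrays: 9 of 9 CA1, 9 of 11 CA3 and CA2 and 10 of 12 dentate granule cell markers were well above background on all 8. Thalamus markers were also present (13 of 15 on all 8 arrays, with 0 below background on every array), and the sum of their intensities ran from 48065 to 56047 in B6 and from 52306 to 209782 in BTBR. Their mean log2 level was 13.07 on BTBR 1 and 11.11 on BTBR 2, against 10.51 to 10.80 on the other 6 arrays. Striatum markers (7 of 9 on all 8 arrays) summed to between 14329 and 54695 in B6 and between 10405 and 147248 in BTBR, and their mean log2 level was 13.30 on BTBR 2, 11.87 on B6 2 and 11.23 on BTBR 1, against 9.79 to 10.19 elsewhere. Choroid plexus markers (7 of 8 on all 8 arrays) summed to between 16395 and 40805 in B6 and between 19024 and 79370 in BTBR, and their mean log2 level was 12.49 on BTBR 1 and 12.35 on BTBR 2, against 10.27 to 11.59 on the others. The tested receptor probes and the named genes that work with them are therefore also given without BTBR 1 and BTBR 2. Both lay on slide 1 of the 2 array slides, together with B6 1 and B6 2. This setting thus compares BTBR arrays of slide 2 with B6 arrays of both slides. Strain and slide are then partly confounded, and no slide term was fitted. The setting called 5.54% of all probes in either direction, and no share by gene was computed for it. For the receptor probes B6 2 was left out as well in a further setting. Limma then called 0 of 11 receptor probes, with 2 at an unadjusted p under 0.05, and 4.23% of all probes.

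Of the 13 receptor probes, 11 passed the filter on dim probes and were tested, and these covered all 6 genes. Levels below are log2 intensities after background subtraction and quantile normalization. By limma with a Benjamini-Hochberg adjusted p under 0.05, 1 of the 11 probes was called, the Grm2 AK034263 probe, and it was lower in BTBR. Over all 27982 tested probes limma called 7.61% in either direction and 4.30% as lower in BTBR. The rank product, the test that the study's methods name, called the same probe at a proportion of false positives (pfp) of 0.0335, and it called 3.95% of all probes. The AK034263 probe was also the 1 receptor probe whose strains did not overlap, which held for 14.2% of all probes. A share of 1 in 11 is close to these backgrounds and is no result about the receptors as a family. In sign, 9 of the 11 log2 differences were below 0 and 2 were above it, with a median of −0.11 against 0.01 over all tested probes, and 4 of these 9 probes belong to Grm5. Leaving out BTBR 1 and BTBR 2 turned the tally, with 4 below 0 and 7 above it and a median of 0.054.

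**Figure D1:**
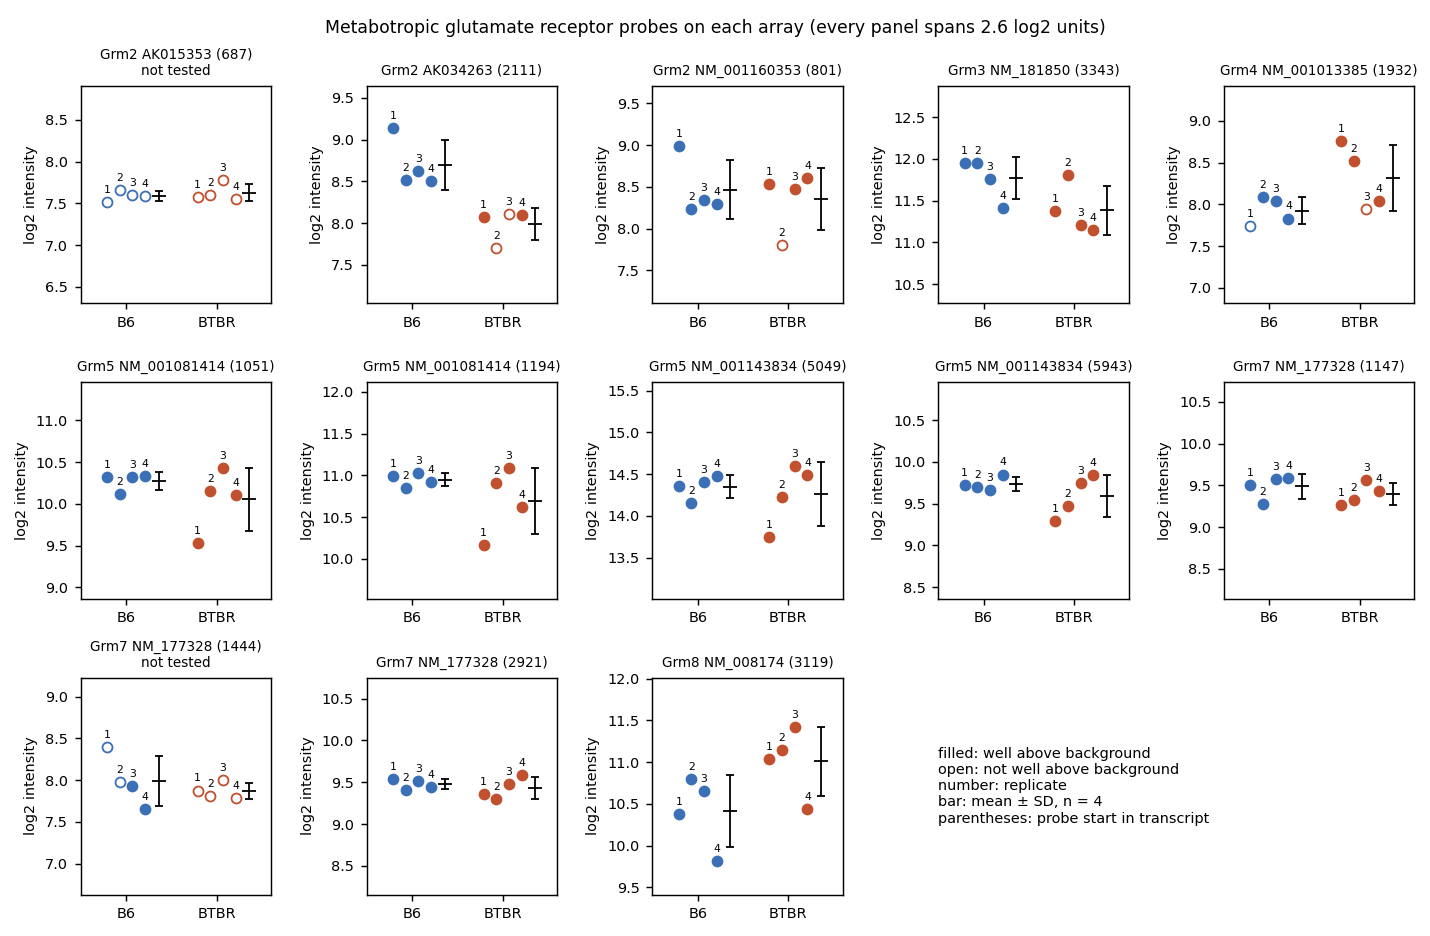
Log2 intensity of each of the 13 receptor probes on each array, with B6 in blue, BTBR in red, the replicate number at each point, the start of the probe in its transcript in parentheses and the mean ± SD (n = 4) beside it. All 4 BTBR points lie below all 4 B6 points for Grm2 AK034263, whereas the strains overlap on every other tested probe.

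Grm2 was the receptor with a strain difference that passed the test, and it did so on 1 of its 2 tested probes. At the AK034263 probe the B6 arrays 1 to 4 read 9.14, 8.52, 8.62 and 8.51, and the BTBR arrays 1 to 4 read 8.07, 7.70, 8.11 and 8.09. All BTBR arrays were below all B6 arrays. The mean was 8.70 ± 0.30 for B6 and 7.99 ± 0.19 for BTBR (SD, n = 4 each), a log2 difference of −0.70 (SE 0.16, limma adjusted p = 0.025). The exact two-sided permutation test of the 8 arrays gave p = 0.0286, the smallest it can give with 4 against 4. The signal was dim, being well above background on 4 of 4 B6 arrays but only on BTBR 1 and BTBR 4. The probe thus passed the filter on dim probes only through B6, the strain in which it read higher, and under a filter that asks for all 8 arrays it was not tested. No fold is given, because 2 of the 4 BTBR readings were not well above background. On the scanner software's processed signal, to which no offset was added, the log2 difference was −2.25 (SE 0.53, adjusted p = 0.041), a size that includes the readings of BTBR 2 and BTBR 3 that were not well above background. In whole tissue, fewer cells of a type and less RNA per cell cannot be told apart.

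The NM_001160353 probe of Grm2 did not pass the test. Its levels were 8.99, 8.23, 8.34 and 8.30 in B6 and 8.53, 7.81, 8.47 and 8.61 in BTBR. The strains overlapped widely, with means of 8.47 ± 0.35 and 8.35 ± 0.37 (SD, n = 4 each). The log2 difference was −0.11 (SE 0.22, 95% confidence interval −0.60 to 0.38, limma adjusted p = 0.84), and the exact permutation p was 0.69. On the processed signal it was −0.44 (adjusted p = 0.74).

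On both probes B6 1 was the highest B6 array and BTBR 2 the lowest BTBR array, and the difference between the probes within each array is given as a description, with no test, since it was chosen after their values were seen. The AK034263 level minus the NM_001160353 level was 0.15, 0.28, 0.28 and 0.21 on the B6 arrays and −0.46, −0.10, −0.37 and −0.52 on the BTBR arrays. It was above 0 in every B6 mouse and below 0 in every BTBR mouse, with means of 0.23 ± 0.07 and −0.36 ± 0.18 (SD, n = 4 each). On BTBR 2 neither probe was well above background, and on BTBR 3 the AK034263 probe was not, so both probes were measured on the 4 B6 arrays, BTBR 1 and BTBR 4. On the processed signal the same quantity was 0.37, 0.79, 0.69 and 0.65 in B6 and −1.12, −1.17, −1.21 and −1.22 in BTBR, with the same limit on BTBR 2 and BTBR 3. The sign has no meaning in itself, since each probe has its own brightness. Whether BTBR carries other bases at either probe was not examined, and which transcript forms each probe reads was not tested.

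**Figure D2:**
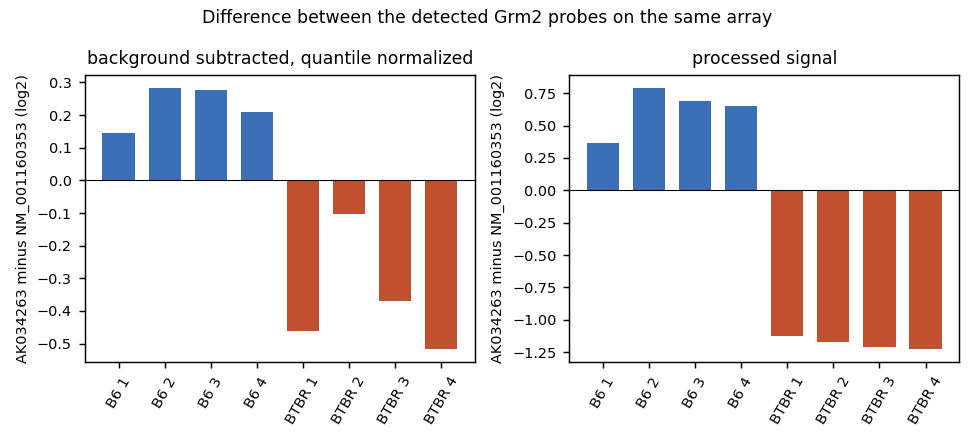
The log2 level of Grm2 AK034263 minus that of Grm2 NM_001160353 on each array, B6 in blue and BTBR in red, on the main scale (left) and on the processed signal (right). The difference is above 0 on all 4 B6 arrays and below 0 on all 4 BTBR arrays on both scales, from 0.15 to 0.28 and from −0.52 to −0.10 on the main scale, and on BTBR 2 and BTBR 3 it includes readings not well above background.

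Dentate granule cells are known for Grm2. Dentate granule cell markers had mean log2 levels of 11.63, 10.67, 11.12 and 11.35 on the B6 arrays and 10.23, 9.54, 10.83 and 10.97 on the BTBR arrays. Their intensities summed to between 24747 and 63668 in B6 and between 10541 and 38195 in BTBR. As on both Grm2 probes, B6 1 was the highest and BTBR 2 the lowest array. BTBR 3 and BTBR 4 were above B6 2, which was so for NM_001160353 but not for AK034263. Of the 11 dentate markers tested, 2 were called lower in BTBR and 0 higher, Stxbp6 (log2 difference −0.55, limma adjusted p = 0.034) and Trpc6 (−0.95, adjusted p = 0.046), against 5.77% of all genes called lower. The list had a median of −0.61, with 6 of 11 genes at an unadjusted p under 0.05 (23.5% of all genes) and 5 called by the rank product (5.48% of all genes). Without BTBR 1 and BTBR 2 limma called 0 of the 11, with 3 at an unadjusted p under 0.05 and a median of −0.14, and Stxbp6 and Trpc6 differed by −0.44 and −0.59 (adjusted p = 0.11 and 0.24). The part of dentate granule cell content in the Grm2 difference was not tested. On slide 1, which held replicates 1 and 2 of each strain, the AK034263 difference was −0.94, and on slide 2, with replicates 3 and 4, it was −0.47. Without BTBR 1 and BTBR 2 it was −0.60 and no longer called (limma adjusted p = 0.13, and −0.66 with adjusted p = 0.15 when B6 2 was left out too), and the exact permutation p was 0.067, the smallest possible with 4 against 2. Leaving out single arrays ended the call without B6 3 (adjusted p = 0.060), without BTBR 1 (0.053) and without BTBR 2 (0.061). For NM_001160353 slide 1 gave −0.45, slide 2 gave 0.22, and the value was 0.073 without BTBR 1 and BTBR 2.

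Grm3, the other group II receptor, did not pass the test. Its probe read 11.94, 11.95, 11.76 and 11.41 in B6 and 11.37, 11.80, 11.21 and 11.14 in BTBR. The strains overlapped through BTBR 2 and B6 4. The means of 11.77 ± 0.25 and 11.38 ± 0.30 (SD, n = 4 each) gave a log2 difference of −0.38 (SE 0.17, limma p = 0.049, adjusted p = 0.27, exact permutation p = 0.11). It was −0.36 on slide 1 and −0.41 on slide 2, and −0.59 without BTBR 1 and BTBR 2 (adjusted p = 0.088). That last value keeps the B6 arrays of slide 1 (11.94 and 11.95), which read higher than those of slide 2 (11.76 and 11.41). Astrocyte markers had mean log2 levels of 13.93 to 14.02 in B6 and 13.82 to 13.99 in BTBR. Of the 15 astrocyte markers 2 were called higher in BTBR, Ntsr2 (log2 difference 0.50) and Acsbg1 (0.41), and 2 lower, Gfap (−1.30) and Aldoc (−0.61, on 1 of its 2 probes). Over all genes 4.28% were called higher and 5.77% lower. Limma called 1 of the astrocyte markers higher and 2 lower without BTBR 1 and BTBR 2, beside 5.54% of all probes in either direction. The part of astrocyte content in the Grm3 level was not tested.

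Grm8, a group III receptor, had the largest positive difference of the 11 probes on the main scale with all arrays, whereas Grm4 exceeded it on the processed signal and within slide 1. It read 10.38, 10.79, 10.65 and 9.82 in B6 and 11.04, 11.15, 11.42 and 10.44 in BTBR. The highest 3 readings were BTBR arrays, and BTBR 4 lay within the B6 range. The means were 10.41 ± 0.43 and 11.01 ± 0.41 (SD, n = 4 each), a log2 difference of 0.60 (SE 0.25, limma p = 0.040), or 1.52-fold, which did not pass adjustment (adjusted p = 0.24, exact permutation p = 0.086, rank product pfp 0.0997). It was 0.51 on slide 1 and 0.70 on slide 2, and 0.52 without BTBR 1 and BTBR 2 (adjusted p = 0.51). With the replicate number as a block in limma it was called (SE 0.087, adjusted p = 0.014), but the main setting did not treat arrays as pairs. The local background of this spot was marked as an outlier on BTBR 3, the array with the highest level.

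Grm4, a group III receptor best known from cerebellar granule cells, was dim and was highest on the arrays that stood apart. Its levels were 7.74, 8.09, 8.04 and 7.83 in B6 and 8.76, 8.52, 7.94 and 8.04 in BTBR. BTBR 1 and BTBR 2 were the highest of the 8 arrays, and BTBR 3 and BTBR 4 lay within the B6 range. The signal was well above background on 3 arrays of each strain, not on B6 1 and not on BTBR 3. The overall log2 difference was 0.39 (SE 0.18, limma adjusted p = 0.30, exact permutation p = 0.14). On slide 1 it was 0.72 and called (adjusted p = 0.029, 2 against 2 arrays), and on slide 2 it was 0.06, with the spread pooled over both slides. Without BTBR 1 and BTBR 2 it was 0.06 (adjusted p = 0.85). The arrays high for Grm4 were those high for thalamus markers, and also for choroid plexus and oligodendrocyte markers. Oligodendrocyte markers had mean log2 levels of 13.78 on BTBR 1 and 13.93 on BTBR 2, against 13.24 to 13.47 elsewhere. Interneuron markers were highest on the same arrays by a small margin (13.33 and 13.32, next 13.24 on B6 2). The part of thalamic, striatal, choroid plexus or other cell content in the Grm4 level was not tested. On the processed signal the difference was 1.05 (adjusted p = 0.49).

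**Figure D3:**
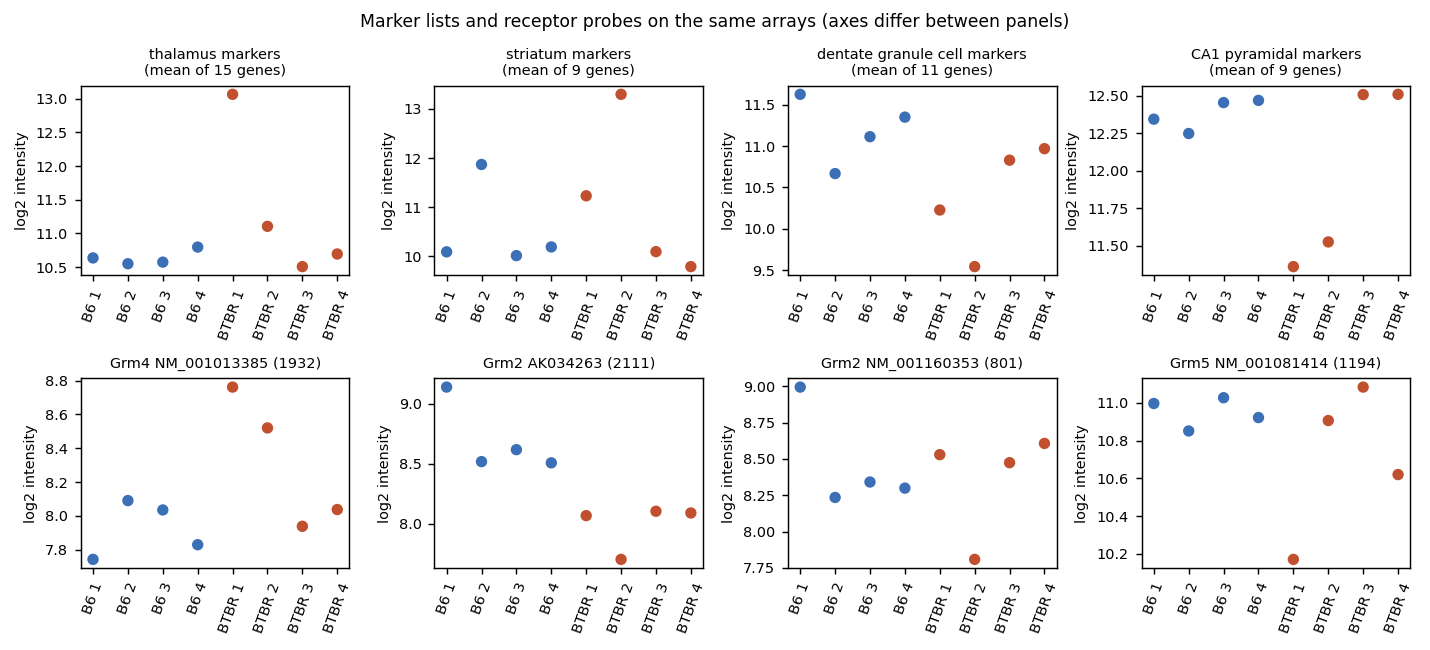
Mean log2 intensity of 4 marker lists (top row) and log2 intensity of 4 receptor probes (bottom row) on each array, B6 in blue and BTBR in red, with axes that differ between panels. Grm4 is highest on BTBR 1 and BTBR 2, the arrays on which thalamus markers read 13.07 and 11.11. Choroid plexus and oligodendrocyte markers, not shown, were also highest on these arrays. Grm2 AK034263 is lowest on BTBR 2, where dentate markers are lowest at 9.54.

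Grm7, the presynaptic group III receptor with low affinity for glutamate, did not pass the test on either of its tested probes. Its probe at chr6:111016897-111030371, whose 60 bases span 13475 bases of genome and so cross a splice junction, read 9.27 to 9.59 in B6 and 9.27 to 9.56 in BTBR. The log2 difference was −0.09 (SE 0.10, 95% confidence interval −0.31 to 0.13, limma adjusted p = 0.70). The junction probe at chr6:111445847-111516024 read 9.40 to 9.54 in B6 and 9.30 to 9.59 in BTBR, a difference of −0.05 (SE 0.08, interval −0.22 to 0.13, adjusted p = 0.82). These probes differed by 0.011 and 0.054 without BTBR 1 and BTBR 2. The intervals over all arrays are the narrowest of the receptor probes, and both leave out a change of the size of the Grm2 AK034263 difference. The remaining Grm7 probe (chr6:111196169-111196228) was well above background on B6 3 and B6 4 and on 0 of 4 BTBR arrays, so it was not tested. It read 7.66 to 8.40 in B6, where the highest array, B6 1, was not well above background and had its local background marked as an outlier, and 7.78 to 8.0 in BTBR. On the processed signal all 4 BTBR arrays were below all 4 B6 arrays, with a log2 difference of −0.92. That value rests mostly on readings not well above background, and no fold is given for this probe.

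Grm5, the group I receptor of pyramidal cells and other principal neurons, had no probe that passed the test. The brightest of its 4 probes (NM_001143834 from base 5049, chr7:95280099-95280158) read 14.35, 14.16, 14.41 and 14.47 in B6 and 13.74, 14.22, 14.60 and 14.49 in BTBR. BTBR 1 was the lowest of the 8 arrays there and on the other 3 probes as well. The probe in NM_001081414 from base 1051 (chr7:94751387-94751446) read 10.33, 10.11, 10.32 and 10.33 in B6 and 9.53, 10.15, 10.43 and 10.10 in BTBR, with a log2 difference of −0.22 (SE 0.17, interval −0.60 to 0.17, limma adjusted p = 0.57). That value rested on BTBR 1, since it was −0.043 without that array and −0.0054 without BTBR 1 and BTBR 2. For the neighboring probe from base 1194 (chr7:94751530-94751589), which read 10.85 to 11.03 in B6 and 10.17 to 11.08 in BTBR, the difference was −0.25 (SE 0.17, adjusted p = 0.51). It was −0.079 without BTBR 1 and −0.097 without BTBR 1 and BTBR 2. The brightest probe differed by −0.08 (SE 0.17, adjusted p = 0.86) and the probe from base 5943 (chr7:95280993-95281052) by −0.14 (SE 0.12, adjusted p = 0.61), and without BTBR 1 and BTBR 2 they differed by 0.20 and 0.063. Each of the 4 differences was smaller than the SD of its probe between BTBR arrays, which ran from 0.25 to 0.40 and includes BTBR 1. The SD between B6 arrays was lower, from 0.079 to 0.14. The differences of the probes from bases 1051, 1194 and 5943 exceeded it.

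CA1 pyramidal markers, whose cells are rich in Grm5, had mean log2 levels of 12.35, 12.25, 12.46 and 12.47 in B6 and 11.36, 11.52, 12.51 and 12.51 in BTBR, and their intensities summed to between 125560 and 145797 in B6 and between 77836 and 178181 in BTBR. They were lowest on BTBR 1 and BTBR 2, while on BTBR 2 the Grm5 level lay within the B6 range on 3 of the 4 probes. Of 9 CA1 markers 1 was called, Gpr161, higher in BTBR (log2 difference 0.39, adjusted p = 0.031), beside 4.28% of all genes called higher. The median of the list went the other way, at −0.41 against 0.01 over all genes, with 5 of the 9 genes at an unadjusted p under 0.05 and 4 called by the rank product, against 23.5% and 5.48% of all genes. The median was 0.23 without BTBR 1 and BTBR 2, where 2 markers were called higher and Gpr161 differed by 0.43. That setting called 5.54% of all probes in either direction. The part of CA1 content in the Grm5 levels was not tested.

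**Figure D4:**
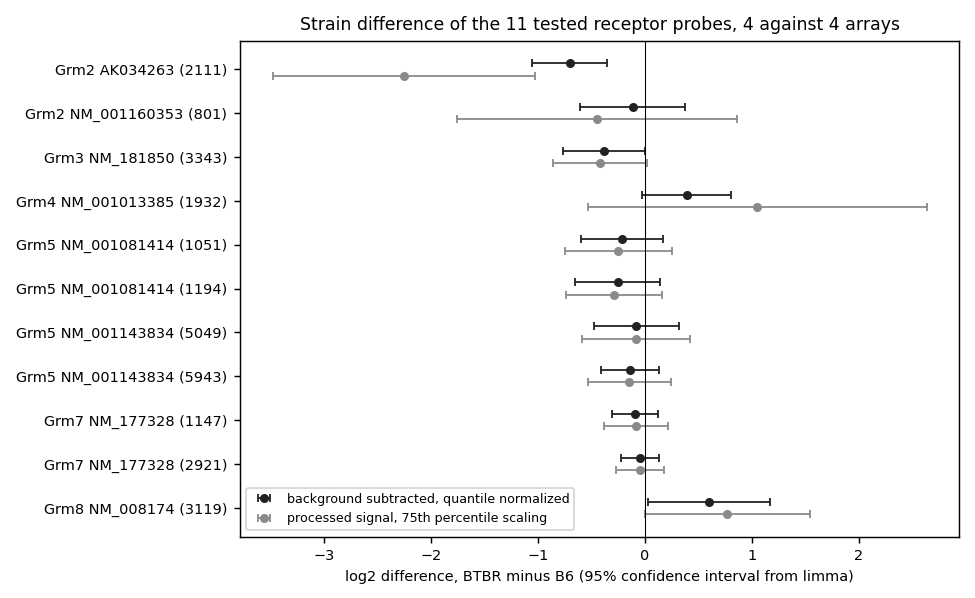
Log2 difference BTBR minus B6 of the 11 tested probes with its 95% confidence interval from limma (n = 4 against 4), in black on the main scale and in gray on the processed signal. Grm2 AK034263 lies at −0.70 and −2.25, Grm8 at 0.60 and 0.77, and the Grm5 and Grm7 probes between −0.29 and −0.05 on both scales.

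The genes that work with these receptors were taken from lists of textbook partners. Of the 29 tested partners and effectors of group I receptors, which include the Homer scaffolds and the phospholipase C pathway, 1 was called higher in BTBR and 0 lower, beside 4.28% of all genes called higher. This was Calm3 (log2 difference 0.51, SE 0.12, limma adjusted p = 0.038), called on 1 of its 3 probes. Its other probes differed by 0.44 (adjusted p = 0.43) and −0.16 (adjusted p = 0.51). Calm3 differed by 0.68 without BTBR 1 and BTBR 2 (adjusted p = 0.014). In that setting 3 genes of the list were called higher, beside 5.54% of all probes called in either direction. The median difference of the list was −0.08, against 0.01 over all genes.

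Downstream of group II and III receptors, 2 of 35 Gi/o subunits, beta gamma subunits and regulators were called, both higher in BTBR, beside 4.28% of all genes called higher. Arrb1, an arrestin that uncouples receptors from G proteins, differed by 0.34 (SE 0.06, adjusted p = 0.0072), and Adrbk2, a kinase that phosphorylates active receptors, by 0.43 (SE 0.10, adjusted p = 0.036), each on 1 of its 2 probes. Their other and brighter probes differed by −0.02 (Arrb1, adjusted p = 0.93) and −0.17 (Adrbk2, adjusted p = 0.59). Without BTBR 1 and BTBR 2 the called probes differed by 0.31 (Arrb1, adjusted p = 0.057, no longer called) and 0.56 (Adrbk2, adjusted p = 0.021). In that setting 1 gene of the list was called higher and 1 lower, beside 5.54% of all probes called in either direction. Among 18 adenylyl cyclases, protein kinase A subunits and GIRK channels, which are the classic targets of Gi/o, 1 was called, a share near that of 4.28% of all genes called higher. Prkar1a, a regulatory subunit of protein kinase A, was higher in BTBR by 1.69 (SE 0.07, adjusted p = 1.1e-06), with means of 13.89 ± 0.11 in BTBR and 12.20 ± 0.05 in B6 (SD, n = 4 each), and it differed by 1.65 without BTBR 1 and BTBR 2 (adjusted p = 4.7e-05). Of the 19 tested partners of group II and III receptors limma called 0, with 5 at an unadjusted p under 0.05 and 1 called by the rank product, shares near the 23.5% and 5.48% of all genes. The medians of these 3 lists were 0.05, 0.13 and 0.02 in that order, against 0.01 over all genes. They take the brightest tested probe of each gene, so Arrb1 and Adrbk2 enter with −0.02 and −0.17.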

How the data were processed

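Arrays were grouped by strain from title, source and genotype, although the labels give C57BL/6J as background of the BTBR samples too. The deposited intensity values were obtained by the authors with Agilent Feature Extraction (10.7.3.1 in the file headers, 9.1 in the submitters' processing notes). The log2 values of the authors' deposited matrix, quantile normalized with Agi4x44PreProcess, served as an alternative. Its signal column and offset are not given in the sources used here. On every array it ranked the tested probes as mean signal minus local background did (Spearman correlation 1.00). It is thus an alternative in scale and offset and not a separate signal.

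Median local background was subtracted from mean signal with a floor of 0.5, an offset of 50 was applied, and arrays were quantile normalized on the log2 scale. Replicate spots were summarized by their median. Left out were 154 probes with outlier flags and probes not well above background on at least 75% of the arrays of either strain, which left 27982 of 41174 probes. No probe was saturated. The number of arrays limits the precision. Strain alone was fitted with limma 3.58.1 (R 4.3.3). The rank product used 100 permutations and a pfp of 0.05 or less. Scripts were tested on simulated data. The arrays lay on 2 slides, each with its own scan and both strains.

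The members, lists and tests were chosen with earlier results of these data known. Every probe of the 6 receptors is described. From the list of group I partners 1 gene was left out and is not reported here. Lists are described by up to 4 called genes each, in order of p, and each receptor's brightest tested probe by the 2 genes whose within-strain deviations correlate best with it. A listed gene counts as called if any of its probes passed. List medians, mean levels and sums use the brightest tested probe of each gene. Alternatives were other signals, offsets, normalizations, filters, blocks, slides and left-out arrays. Leaving out BTBR 1 and 2, with and without B6 2, was added after seeing the data.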

Additional observations from a re-analysis of the deposited data

Results flagged for a closer look

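Among the 22 groups of 4 arrays behind the tested receptor probes, 4 held an array whose gap to its nearest neighbor was above Dixon's 95% critical value as a share of the group's range, and chance alone marks about 1 in 20 groups. At Grm2 AK034263 the array BTBR 2 read 7.70, with the next array at 8.07 (ratio 0.909). At Grm2 NM_001160353 the array B6 1 read 8.99 against 8.34 for its neighbor (ratio 0.860), and BTBR 2 read 7.81 against 8.47 (ratio 0.834). BTBR 2 thus stood low on both detected Grm2 probes. At the Grm5 probe chr7:94751387-94751446 the array B6 2 read 10.11, with the next at 10.32 (ratio 0.967). The interaction of strain and slide in limma had an adjusted p of 0.46 to 0.99 over the 11 receptor probes.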

How the results depend on the processing

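The Grm2 AK034263 probe was lower in BTBR under every alternative run, with log2 differences of −2.25 to −0.45, and was called under 16 of 22 of them besides the rank product. It was not called within slide 2 (−0.47), against BTBR 3 and BTBR 4 alone (−0.60, and −0.66 without B6 2 as well) or without B6 3, BTBR 1 or BTBR 2. Leaving out single arrays gave −0.77 to −0.56. It had no value in the test of probes well above background on all 8 arrays. There 8 receptor probes remained and 0 were called, beside 7.35% of all probes tested. The median over the Grm2 probes was −0.41 and not called (adjusted p = 0.29). Called receptor probes numbered 0 within slide 2, 2 within slide 1, 2 with the replicate number as a block, 0 against BTBR 3 and BTBR 4 with or without B6 2, and 0 to 1 without single arrays, always in limma and with 1 in the main setting. Of all probes, limma called 3.70% within slide 2, 8.65% within slide 1 and 5.90% with the replicate block. The share was 5.54% against BTBR 3 and BTBR 4, 4.23% without B6 2 as well, 5.48% to 7.80% without single arrays and 7.61% in the main setting. Where 0 were called, 1 or 2 receptor probes had an unadjusted p under 0.05. Grm4 was called within slide 1 (0.72). Over all probes 2421 were called within slide 1, 1036 within slide 2, 1106 by the rank product, 1183 without B6 2, BTBR 1 and BTBR 2, and 1533 to 2183 without single arrays, against 2129.

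Uncalled differences that changed sign were small. Within slide 2 they were 0.22 for Grm2 NM_001160353, 0.11 and 0.040 for the Grm5 probes chr7:95280099-95280158 and chr7:95280993-95281052 and 0.049 for the Grm7 probe chr6:111445847-111516024. Against BTBR 3 and BTBR 4 the same probes gave 0.073, 0.20, 0.063 and 0.054, and the Grm7 probe chr6:111016897-111030371 gave 0.011. Without B6 2 as well, the Grm5 probes gave 0.14 and 0.052 and the Grm7 probe 0.030. Without single arrays Grm2 NM_001160353 ranged from −0.20 to 0.069 and the brightest Grm5 probe from −0.19 to 0.092. The cause of these changes was not tested.

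Arrays of the same replicate number, which also share a slide, were not treated as pairs, since their deviations correlated at −0.14, 0.51, −0.10 and 0.39 and not all of these were positive. The replicate block called 1650 probes and added Grm8 (0.60, adjusted p = 0.014) to Grm2 AK034263. Signals near background limit the Grm2 and Grm4 folds.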

Other observations

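The AK015353 probe, which carries the name Grm2 but lies on the opposite strand, read 7.51 to 7.77, and its signal stayed near background throughout (0 of 8 arrays well above it).

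The probes whose deviations from the strain means followed a receptor most closely are given as a description over 8 arrays, out of 23694 to 23697 probes of other named genes, and arrays that stand apart enter every value. They were Gcc2 and Zfp629 for Grm2 NM_001160353 (Pearson r = 0.990 and 0.986), Rbks and Ccnyl1 for Grm3 (0.982 and 0.979), and Cxx1c and Rxrb for Grm4 (0.996 and 0.995). For the brightest Grm5 probe they were Pou3f3 and Ahcyl2 (0.993 and 0.992), for Grm7 Nfix and Cyp26b1 (0.989 and 0.982), and for Grm8 Mtpn and Aass (0.985 and 0.982). The number of probes with r above 0.9 was 701 for Grm4 and 522 for Grm5, against 29 for Grm8.

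Among microglia markers, 6 of 12 were called by limma, 1 higher and 5 lower in BTBR, against 4.28% and 5.77% of all genes. Without BTBR 1 and BTBR 2, 1 was called higher and 4 lower, beside 5.54% of all probes in either direction. CA3 and CA2 pyramidal markers had 1 of 10 called, lower in BTBR, with and without those arrays. With all arrays limma called 0 of the thalamus, striatum, choroid plexus, interneuron and oligodendrocyte markers. At an unadjusted p under 0.05 (23.5% of all genes) these lists, of 15, 9, 8, 12 and 13 tested genes, had 1, 0, 1, 1 and 2, and the rank product (5.48% of all genes) called 4, 3, 1, 0 and 1.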
